A study of Mus musculus with 2 samples.

Results

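Described here are 7 genes for granins and other proteins of the secretory granule: Chga, Chgb, Scg2, Scg3, Scg5, Vgf and Resp18. They were taken by symbol, for what their products are, and are 7 of the 27998 genes counted. All 7 had UMIs in both tumors and passed the filter of 10 UMIs over the 2 tumors. UMIs are unique molecular identifiers, which count captured RNA molecules rather than reads.

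The study used a mouse model of small cell lung cancer in which Rb, Trp53 and Rbl2 are deleted in the lung (called TKO, for triple knockout). TKO1 and TKO2 are each 1 tumor from the lung of 1 mouse, and each gave 1 single-cell library on the 10x Chromium system. Both groups carried the same alleles, Rb-/-, Trp53-/- and Rbl2-/- with the Rosa26membrane-Tomato or membrane-GFP reporter, on a background mixed from C57BL/6, 129/SVJ and 129/SvOla, and the mice were 8 to 9 months old. Tumors were started with Adeno-CMV-cre, a virus whose promoter is active in most cell types, and were taken 7 months later. There is no untreated or normal lung sample, so the comparisons are between the tumors and between the cells of each.

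Granins are acidic proteins of the regulated secretory pathway of endocrine cells and neurons. They aggregate with calcium in the trans-Golgi network, help to load hormones into dense core granules, and are released with them when the cell is stimulated. Many are cut by prohormone convertases into smaller peptides. Chromogranin A, the product of Chga, is a common marker of neuroendocrine tumors, small cell lung cancer among them.

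Positions of the members come from GENCODE vM21 on GRCm38, the assembly also called mm10. All 7 are annotated there as protein-coding genes. Scg2 lies at chr1:79434669-79440120 and Resp18 at chr1:75272199-75278415, both on the minus strand of chromosome 1. Chgb lies at chr2:132781278-132795079 and Scg5 at chr2:113776362-113829121. Vgf lies at chr5:137026392-137033351, Scg3 at chr9:75643189-75684056 and Chga at chr12:102554969-102565028.

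The promoters of Chga and Resp18 are shown because these members had the most UMIs in TKO1, and because Resp18 separated the tumors by far more than Chga did. Each is the 200 bases before the RefSeq start on GRCm38.p6, written 5′ to 3′ on the gene's own strand. Capitals mark the letters TGACG, the core of the cAMP response element, and CAGCTG, an E-box, the kind of site that bHLH factors can bind.
Chga promoter, chr12:102554741-102554940, plus strand: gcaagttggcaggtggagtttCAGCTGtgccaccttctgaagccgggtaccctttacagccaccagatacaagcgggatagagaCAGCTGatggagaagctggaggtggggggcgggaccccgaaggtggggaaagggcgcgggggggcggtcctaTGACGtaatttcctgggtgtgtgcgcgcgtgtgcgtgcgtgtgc
Resp18 promoter, chr1:75278416-75278615, minus strand: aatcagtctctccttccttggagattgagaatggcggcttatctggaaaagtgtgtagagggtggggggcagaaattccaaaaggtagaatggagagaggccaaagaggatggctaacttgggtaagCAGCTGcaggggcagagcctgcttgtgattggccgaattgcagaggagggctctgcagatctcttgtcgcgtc

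Chgb and Scg2 hold the full cAMP response element TGACGTCA, so 30 bases around it are shown, with the element in capitals.
Chgb, chr2:132781559-132781588, plus strand: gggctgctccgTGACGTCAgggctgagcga
Scg2, chr1:79440076-79440105, minus strand: ggctgagccggTGACGTCAgcgtggaatgc

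Entries of the RefSeq promoter table matched 6 of the 7 members, all but Vgf. Over the 250 bases before the start, on both strands, the full element was in 2 of the 6, against 1.62% of 27025 promoters. The core TGACG, which the full element contains, was in 5 of the 6 (all but Resp18), against 17.9%. The E-box was in 2 of the 6, Chga and Resp18, against 12.8%. In Chgb the full element began 72 bases before the start, and in Scg2 it began 68 bases before. These are RefSeq starts. The GENCODE models of both genes begin farther upstream, so there the elements lie within the annotated gene. The motifs were picked with the sequences in view, and a match describes letters only, not a bound site.

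TKO1 held 4514 cell barcodes and TKO2 held 3816, and 3193 and 3568 of them had more than 500 detected genes and were retained. The retained cells had a median of 1223 UMIs in TKO1 and 1960 in TKO2, and 22 barcodes occur in both lists. Clusters were named from marker genes that exclude the 7 members. Neuroendocrine-like (NE-like) cells made up 2620 cells in TKO1 and 3217 in TKO2, and macrophage-like cells 98 and 123. In the NE-like clusters between 11 and 18 of the 20 neuroendocrine markers were at least 2-fold above the macrophage-like cells, and in the macrophage-like clusters all 15 macrophage markers passed their cut. Cells of 1 library are not replicates, so there is no test between the tumors, and a difference between tumors, mice and libraries cannot be told apart. Intervals are 95% intervals of counting error only. Levels are CPM, the UMIs of a gene per 1000000 UMIs of the cells summed. UMIs were not divided by transcript length, so an order between genes is an order of captured molecules.

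Taken as a group, the 7 genes were far more abundant in TKO1. Summed over NE-like cells they gave 3659.7 CPM (3599 to 3721) in TKO1 and 422 CPM (407 to 437) in TKO2, a ratio of 8.67 (8.34 to 9.02). They took 0.366% of all UMIs of the NE-like cells in TKO1 and 0.0422% in TKO2. All 7 genes had a higher level in TKO1, and 5 of them were at least 2-fold higher relative to the median of all genes, where 23% of 12779 genes were. No member was 2-fold higher in TKO2, where 17.9% of the genes were. The median of all genes was itself 0.38 higher in TKO1 on the log2 scale, and ribosomal protein genes took 10.6% of UMIs in TKO1 and 23.2% in TKO2. The part that this scaling plays in the ratios was not tested beyond the other scalings, under which the members kept their direction. The median log2 ratio of the members was 2.42, or 2.05 above that of all genes.

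Among the chromogranins, Chga was at 892 CPM in TKO1 (862 to 923, 3360 UMIs) and at 98.99 CPM in TKO2 (91.9 to 106, 729 UMIs). Its log2 ratio was 3.17 (3.06 to 3.29), a 9.01-fold difference. Chgb, the second chromogranin and like Chga a granule matrix protein, was at 276 CPM (259 to 293) and 48.3 CPM (43.4 to 53.6), a log2 ratio of 2.51 (2.34 to 2.69). The level of every NE-like cluster of TKO1 was above that of every NE-like cluster of TKO2 for both genes. For Chgb the intervals of the nearest clusters, 91.6 to 170 CPM in TKO1 and 46.5 to 93.8 CPM in TKO2, overlapped. The share of all genes with clusters apart in this way was not computed, so it is a description only.

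The secretogranins divided. Scg2, the precursor of secretoneurin, was at 195 CPM (181 to 209) in TKO1 and 36.3 CPM (32.0 to 40.9) in TKO2, a log2 ratio of 2.42 (2.22 to 2.63). Scg3, which binds Chga and carries it to the granule membrane, was at 121 CPM (110 to 133) and 65.3 CPM (59.6 to 71.4). Its log2 ratio of 0.89 (0.71 to 1.08) was the smallest of the 7 and only 0.52 above the median gene. The cluster levels of the tumors did not overlap for Scg2 or for Scg3, but the gaps were narrow and the intervals of the nearest clusters overlapped. The lowest cluster of TKO1 and the highest of TKO2 were at 102 CPM (78.5 to 131) and 94.99 CPM (76.9 to 116) for Scg2. For Scg3 they were at 94.2 CPM (64.4 to 133) and 80.9 CPM (58.1 to 110). The share of all genes with such gaps was not computed.

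Scg5 encodes the chaperone of the convertase made from Pcsk2. It was at 423 CPM (403 to 444) in TKO1 and 163 CPM (154 to 172) in TKO2, a log2 ratio of 1.38 (1.27 to 1.49). Relative to the median gene this was 0.999, just below the 2-fold line of 1. Scg5 was the most abundant member in TKO2, and its clusters overlapped between tumors, from 235 CPM in the lowest of TKO1 to 247 CPM in the highest of TKO2.

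Vgf, a precursor of several neuropeptides, was scarce in both. It had 16.7 CPM (12.9 to 21.4, 63 UMIs) in TKO1 and 5.57 CPM (3.995 to 7.55, 41 UMIs) in TKO2. Its log2 ratio of 1.59 (1.00 to 2.19) passed the 2-fold line relative to all genes, by 1.21, but the interval of that value, 0.62 to 1.81, included the line. The call of Vgf was lost under some alternatives, as that of Scg5 was gained when CPM were compared without the median of all genes. The clusters of Vgf overlapped between tumors.

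Resp18 (regulated endocrine-specific protein 18), a granule protein of endocrine cells, differed most. It was the most abundant member in TKO1, at 1736 CPM (1694 to 1779, 6537 UMIs), and the least abundant in TKO2, at 4.89 CPM (3.42 to 6.77, 36 UMIs). The ratio was 355 (256 to 508), a log2 ratio of 8.47 (8.00 to 8.99), which ranked 6 among the 12779 genes, counted from the highest in TKO1. The TKO2 level was not above that of its macrophage-like cells, 30.4 CPM from 7 UMIs in 3 cells. By this comparison, which rests on few UMIs, it is not told apart from background. By cluster it was uneven, from 0 UMIs in cluster 4 to 16.8 CPM (9.80 to 26.9) in cluster 1. The ratio, its interval and its rank describe the summed counts only. Without Resp18 the log2 ratio of the summed members was 2.20 rather than 3.12.

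The order of the members differed between the tumors as a result. In TKO1 it ran Resp18, Chga, Scg5, Chgb, Scg2, Scg3 and Vgf, and no intervals of neighbours overlapped. In TKO2 it ran Scg5, Chga, Scg3, Chgb, Scg2, Vgf and Resp18, and only the intervals of Vgf and Resp18 overlapped. Resp18 made up 47.4% of the members' UMIs in TKO1 and 1.16% in TKO2, while Chga made up 24.4% and 23.4%.

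**Figure D1:**
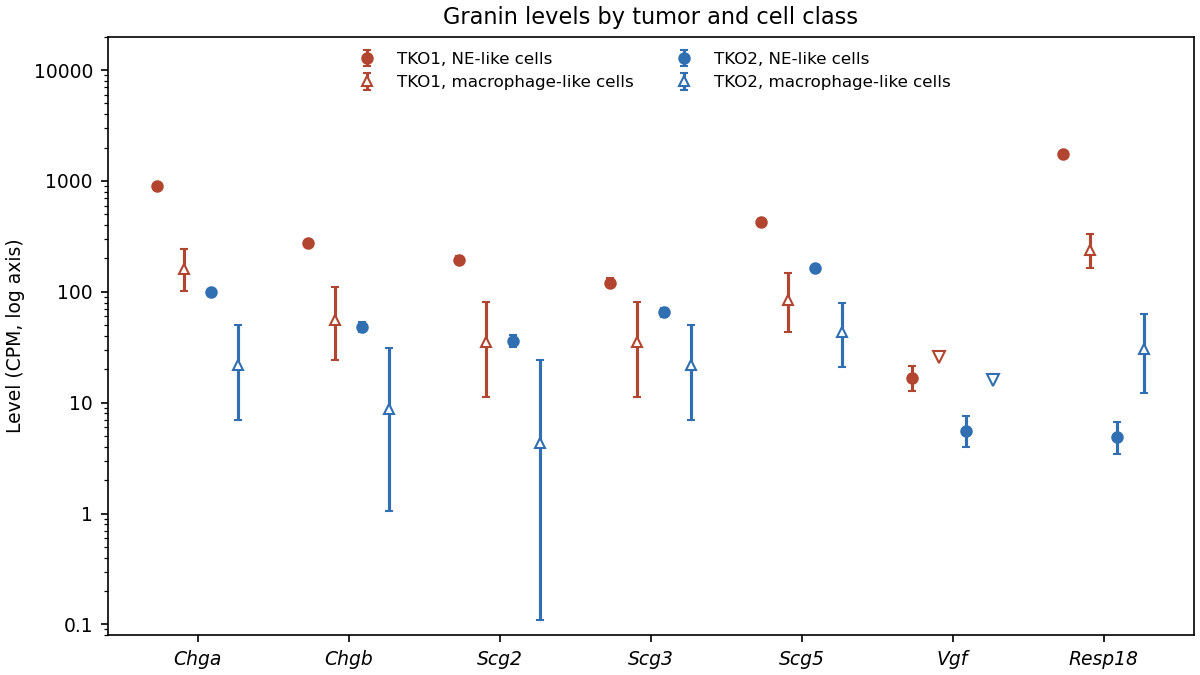
Level of each of the 7 genes in CPM (log axis) in NE-like cells (filled circles) and macrophage-like cells (open triangles pointing up) of TKO1 (red) and TKO2 (blue). Bars are exact Poisson 95% intervals of counting error, and open triangles pointing down mark the upper limit where no UMI was found. Resp18 is the highest gene in NE-like cells of TKO1 (1736 CPM) and the lowest in those of TKO2 (4.89 CPM), where it lies below the macrophage-like cells (30.4 CPM).

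Single cells held few of these molecules. After each cell was thinned to 1000 UMIs, which left 1892 NE-like cells of TKO1 and 2873 of TKO2 and dropped 728 and 344 shallower cells, the median cell of TKO1 held 3 UMIs of the 7 genes and that of TKO2 held 0. At least 1 such UMI was found in 90.8% of the cells of TKO1 (89.4 to 92.0, exact Clopper-Pearson interval) and in 34.6% of those of TKO2 (32.9 to 36.4). The shares in macrophage-like cells, which should lack the genes, were 20.7% (12.6 to 31.1) of 82 cells and 8.77% (4.29 to 15.5) of 114 cells. The median depth before thinning was 1418 UMIs in the NE-like cells of TKO1 and 1433 in the macrophage-like cells, and 2107 and 1737 in TKO2. Without thinning the shares in NE-like cells were 94.1% and 54.1%.

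Gene by gene, Resp18 was seen in 69.8% of the thinned NE-like cells of TKO1 (67.6 to 71.8) and in 0.244% of those of TKO2 (0.0980 to 0.501). The TKO2 share is at or below the 2.63% of its macrophage-like cells (0.546 to 7.50), which rests on 3 of 114 cells. By this share it is not told apart from background. Chga was seen in 51.2% and 9.85%, against 9.76% and 0.877% of macrophage-like cells. Scg5 was seen in 32.2% and 15.4%, against 7.32% and 4.39% of macrophage-like cells, and Chgb in 22.6% and 4.70%, against 7.32% and 0.877%. Scg2 was seen in 15.8% and 3.65%, and Scg3 in 10.1% and 6.47%, each against 2.44% and 0.877%. In TKO2 the shares of Chgb and Scg2 lay within the interval of the macrophage-like cells, 0.0222 to 4.79, which rests on 1 of 114 cells. By these shares they are not told apart from background. By summed counts, Chgb was at 48.3 CPM in NE-like cells of TKO2 and 8.68 CPM (1.05 to 31.4) in macrophage-like cells. Scg2 was at 36.3 CPM and 4.34 CPM (0.110 to 24.2). Vgf reached only 1.69% and 0.487%, below the 3.66% and 2.63% that 0 macrophage-like cells of 82 and of 114 allow, so its presence over background was not detectable per cell. Of the cells of TKO1, 33.0% held UMIs of 2 members and 23.7% of 3, whereas 29.1% of the cells of TKO2 held 1 and 4.84% held 2. No cell held all 7.

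**Figure D2:**
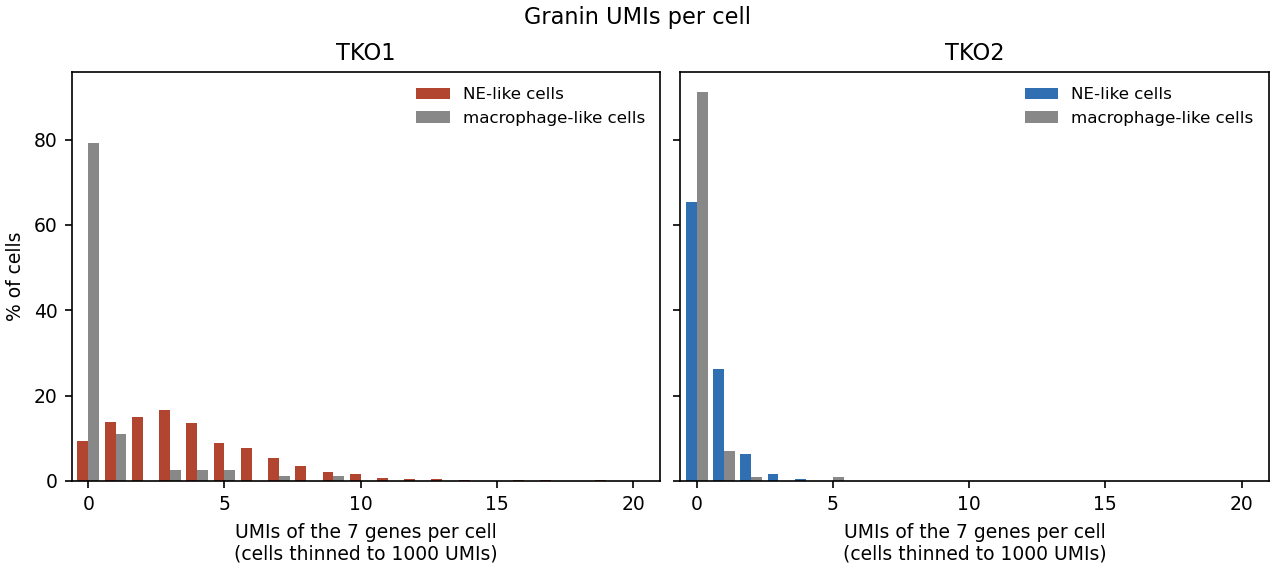
Percent of cells (y axis) by the number of UMIs of the 7 genes together per cell (x axis) after thinning to 1000 UMIs, for NE-like (colored) and macrophage-like (grey) cells of TKO1 and TKO2. In TKO1 the NE-like cells spread around a median of 3 with 9.25% at 0, whereas in TKO2 65.4% are at 0, and most macrophage-like cells are at 0 in both.

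The spread of Resp18 between cells of TKO1 was wide. Its Fano factor (variance over mean at 1000 UMIs) was 2.17, above the 1.51 that marks the 95th percentile of 3587 genes, and that of Chga was 1.67. Chgb (1.17), Scg5 (1.17), Scg3 (1.197) and Scg2 (1.24) lay near the median gene, at 1.17. The 3587 genes were not matched in abundance to the members. Resp18 and Chga averaged 1.80 and 0.90 UMIs in these cells, against 0.12 for Scg3 to 0.41 for Scg5. The part that abundance plays in the Fano factors was not tested, so they do not show a spread unusual for genes of like abundance. A cell of TKO1 at the 95th percentile held 6 Resp18 UMIs, and 173 of the 1892 cells held 5 or more. Across cells the members hardly moved together: the 21 pairwise Pearson correlations at fixed depth ran from -0.03 to 0.12 in TKO1 and from -0.05 to 0.05 in TKO2, sparse counts in which a weak correlation is no finding.

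Across clusters the members varied more. The clustering left the 7 genes out, but clusters of 1 library differ in many genes by construction, so the levels are a description. In TKO1 the sum ran from 2125 CPM in cluster 6, led by the mitotic genes Kif20a, Ube2c and Plk1, to 5117 CPM in cluster 3, led by Rgs4, Ttr and Anxa1. Cluster 3 had the highest Resp18 (2594 CPM), Scg5 (574 CPM), Chgb (422 CPM) and Scg2 (348 CPM) of the 7 NE-like clusters. Cluster 6 had the lowest Resp18 (919.8 CPM), Chga (559.7 CPM), Scg5 (235 CPM) and Scg2 (102 CPM). Scg3 was nearly level, from 94.2 to 134 CPM.

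Cluster 7 of TKO1, led by the neurofilament genes Nefm and Nefl and by Iapp, set the chromogranins apart. It had the highest Chga of any NE-like cluster (1275 CPM, 1157 to 1401) and the lowest Chgb (127 CPM, 91.6 to 170). Its Resp18 was 954 CPM (853 to 1063), near that of the mitotic cluster. In cells of TKO1 with 3 or more UMIs of Mycl, a Myc family gene, at 1000 UMIs (40 cells, against 1670 with none) Chgb and Resp18 were lower too, but Chga was not higher. Mycl was itself among the leading genes of cluster 7, so this split is not separate from that cluster. Chga was at 777 CPM against 872 CPM, and the interval of the log2 ratio, -0.55 to 0.19, included 0. Chgb was at 37.0 CPM (3 UMIs) against 291 CPM, a log2 ratio of -2.98 (-5.26 to -1.42). Resp18 was at 382 CPM (31 UMIs) against 1812 CPM, a log2 ratio of -2.24 (-2.80 to -1.74). Scg2 (2 UMIs) and Scg5 (11 UMIs) had log2 ratios of -2.97 (-6.02 to -1.11) and -1.67 (-2.67 to -0.82) in these cells. The count of Scg2 is under the floor of 3 UMIs used for 2-fold calls. Cells with 3 or more Mycl UMIs had a median of 1869.5 UMIs and the others 1392.

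In TKO2 the sum ran from 271 CPM in cluster 4, led by Crabp2, Car14 and Map2k6, to 697 CPM in cluster 1, led by Tspan1, Dhx34 and Cd200r1. Scg2 varied widely between clusters. It was at 94.99 CPM in cluster 1 and 81.8 CPM in cluster 7, and only 2.15 CPM (2 UMIs) in cluster 2, led by Car14, Fgf21 and Crabp2. Cluster 7 had the mitotic genes Cenpf and Nusap1 among its leading genes, yet its sum, 456 CPM, was above the cluster median of 432 CPM. The sum of cluster 2 was 319 CPM. Chga ran from 43.1 CPM in cluster 5, with the mitotic genes Ccnb1 and Plk1 among its leading genes, to 217 CPM in cluster 1. Scg3 was again nearly level, from 55.7 to 80.9 CPM, and Chgb ran from 27.3 to 67.1 CPM. The few Resp18 UMIs were not spread evenly. Resp18 was at 16.8 CPM (9.80 to 26.9, 17 UMIs) in cluster 1 and 15.8 CPM (6.82 to 31.1, 8 UMIs) in cluster 8. In cluster 4 it had 0 UMIs (0 to 4.11 CPM) and in cluster 5 it had 1 (0.0192 to 4.22 CPM).

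**Figure D3:**
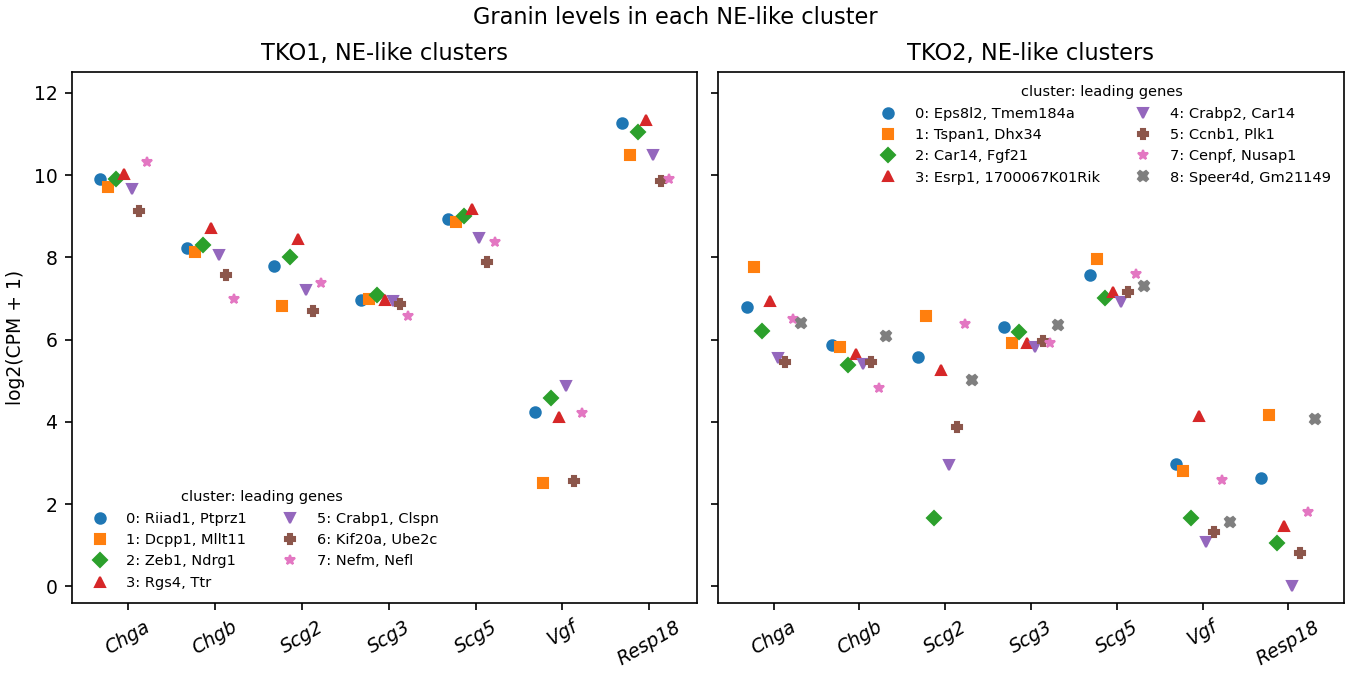
Level of each gene as log2(CPM + 1) in the 7 NE-like clusters of TKO1 (left) and the 8 of TKO2 (right), with 1 symbol per cluster and its leading genes in the legend. Scg3 is tightly grouped in both tumors, Scg2 of TKO2 spreads from 2.15 to 94.99 CPM, and cluster 7 of TKO1 is highest for Chga and lowest for Chgb.

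Cells with 3 or more UMIs of Mycn, another Myc family gene, in TKO2 (1118 cells against 644 with none) had less Scg2, at 21.2 CPM against 48.8 CPM, a log2 ratio of -1.20 (-1.72 to -0.69). Chga was at 89.6 CPM against 122 CPM, a log2 ratio of -0.45 (-0.73 to -0.16). Scg5 had a log2 ratio of -0.29 (-0.51 to -0.06) and the sum of the 7 had -0.36 (-0.50 to -0.22). For Chgb and Scg3 the intervals included 0, at -0.56 to 0.31 and -0.53 to 0.22. The median depth was 2266 UMIs with Mycn and 1890 without. Clusters also differed in Scg2, and how the Mycn split relates to them was not tested. Only 27 cells of TKO2 held a UMI of Neurod1, a proneural factor, and in them the sum was 178 CPM from 16 UMIs, against 419 CPM, a log2 ratio of -1.24 (-2.05 to -0.54). Their median depth was 2603 UMIs, against 2101 in the others.

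Resp18 in TKO2 was concentrated in few cells. Of its 237 UMIs in retained cells, 178 (75.1%) lay in cluster 10, which held 68 cells, 1.91% of the tumor. Cluster 10 was led by the club cell genes Scgb1a1, Scgb3a1 and Scgb3a2 and had 12 neuroendocrine markers over the cut, so it was left unnamed. Its Resp18 level was 1432 CPM (1229 to 1658), somewhat below the 1736 CPM (1694 to 1779) of NE-like cells of TKO1. The cells were mixed. At 1000 UMIs, 25 of 51 cells of cluster 10 held no Resp18 UMI, against 572 of 1892 NE-like cells of TKO1. Chga there was at 410.3 CPM (305 to 539), Scg5 at 402 CPM (299 to 530) and Chgb and Scg2 at 177 CPM each, all above every NE-like cluster of TKO2. The sum of the 7 was 2791 CPM. Calca, the calcitonin and CGRP gene, was at 3765 CPM there and at 17.5 CPM in NE-like cells of TKO2.

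A split of the cells by Calca gave like values. Among cells of TKO2 outside the macrophage-like cluster, 26 held 3 or more Calca UMIs at 1000 UMIs, and 24 of them were in cluster 10, so these are largely the same cells. Their Resp18 was 1732 CPM against 7.03 CPM in 2991 cells without Calca, a log2 ratio of 7.95 (7.41 to 8.49). Scg2 was 3.38 higher on the log2 scale (2.52 to 4.13), Chgb 2.55 (1.58 to 3.37), Chga 2.29 (1.57 to 2.93) and Scg5 1.95 (1.35 to 2.50). The sum in these cells was 3674 CPM, close to the 3659.7 CPM of TKO1. Their median depth was 1433.5 UMIs, against 2109 in the cells without Calca. Of the 68 cells of cluster 10, 0 had a Scrublet doublet score above the 95th percentile of TKO2. Only 133 of the 3568 cells of TKO2 passed that cut, so 0 of 68 says little about doublets in this cluster.

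Another cluster in each tumor expressed neuroendocrine markers but had at least 1 marker of ciliated cells among its leading genes and was kept out of the NE-like class. In TKO1 this was cluster 4, with 370 cells (11.6%), led by Fam183b, Cfap126 and Adm. Its Resp18 level, 2870 CPM (2717 to 3028), was the highest of the tumor, although its interval overlapped that of cluster 3 (2453 to 2742), and the sum was 5085 CPM. In TKO2 it was cluster 6, with 160 cells (4.48%), led by Cartpt, Spp1 and Tppp3. Resp18 was at 41.4 CPM there (23.7 to 67.3, 16 UMIs) and Scg5 at 246 CPM (199 to 301), while Chga was at 46.6 CPM (27.6 to 73.7).

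Cycling state was read from fixed lists of 31 mitosis and 24 S-phase genes in cells thinned to 1000 UMIs. Mitotic cells had 4 or more mitosis UMIs, S-phase cells 4 or more S-phase UMIs and fewer than 4 mitosis UMIs, and non-cycling cells at most 1 of each. In TKO1 there were 275 mitotic, 335 S-phase and 797 non-cycling NE-like cells, and in TKO2 1080, 612 and 467. The 7 genes together were lower in mitotic than in non-cycling cells of both tumors. In TKO1 the sum was 2036 CPM (1920 to 2157) in mitotic, 3343 CPM (3193 to 3498) in S-phase and 4369 CPM (4253 to 4487) in non-cycling cells. The log2 ratio of mitotic to non-cycling cells was -1.10 (-1.19 to -1.01).

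Members were counted where their mean over the classes compared was at least 50 CPM. Of the 6 such members in TKO1, 3 were at least 2-fold lower in mitotic cells relative to the median of all genes past that filter. Of these 3579 genes, 3.27% were. The 3 members were Resp18, at 872 CPM (797 to 953) in mitotic and 2215 CPM (2132 to 2299) in non-cycling cells, Scg2, at 90.6 and 219 CPM, and Scg5, at 220.3 and 484 CPM. Chga was at 544 and 979 CPM, a log2 ratio of -0.85 (-1.03 to -0.67), and Chgb at 197 and 326 CPM, a log2 ratio of -0.73 (-1.04 to -0.42). Scg3 was at 107 and 129 CPM, and the interval of its log2 ratio, -0.73 to 0.17, included 0. Mitotic cells had more UMIs, with a median of 1892 against 1313. Resp18 was also lower per cell, at 1.79 UMIs against 3.43, as was Chga at 1.11 against 1.52, but Scg3 was not, at 0.218 against 0.199.

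In S-phase cells of TKO1, Chga was close to the non-cycling level, with 943 CPM against 979 CPM and a log2 ratio of -0.05 (-0.20 to 0.10). Resp18 was lower, at 1471 CPM, a log2 ratio of -0.59 (-0.70 to -0.48), as was Chgb at 217 CPM, -0.59 (-0.90 to -0.29). Vgf was at 35.8 CPM (21.9 to 55.3, 20 UMIs) in S-phase cells and 17.0 CPM (10.5 to 26.0) in non-cycling cells. Cluster 5 was the only NE-like cluster of either tumor with at least 20 cells of both kinds, mitotic and non-cycling. Within it, the log2 ratio of the sum between 25 mitotic and 38 non-cycling cells was -0.74 (-1.08 to -0.40). Over the other clusters, cycling state and cluster cannot be told apart.

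TKO2 showed a smaller difference. The sum was 368 CPM (347 to 390) in mitotic, 447 CPM (413 to 482) in S-phase and 479 CPM (436 to 525) in non-cycling cells, a log2 ratio of mitotic to non-cycling cells of -0.38 (-0.54 to -0.22). Chga was at 74.9 CPM (65.5 to 85.4) and 133 CPM (111 to 158), a log2 ratio of -0.83 (-1.15 to -0.50), close to the -0.85 of TKO1. Scg5 was at 147 and 180.2 CPM, a log2 ratio of -0.29 (-0.55 to -0.03), and Scg3 at 61.7 and 63.9 CPM. None of the 3 members counted was 2-fold lower, where 0.61% of 2950 genes were. Per cell, the mitotic cells held 1.03 UMIs of the 7 genes and the non-cycling cells 0.979, since their median depth was 2471 against 1805 UMIs. With only cells of more than 1000 detected genes the log2 ratio was -0.00452. No NE-like cluster of TKO2 held 20 or more cells of both kinds, so cycling state and cluster cannot be told apart there.

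**Figure D4:**
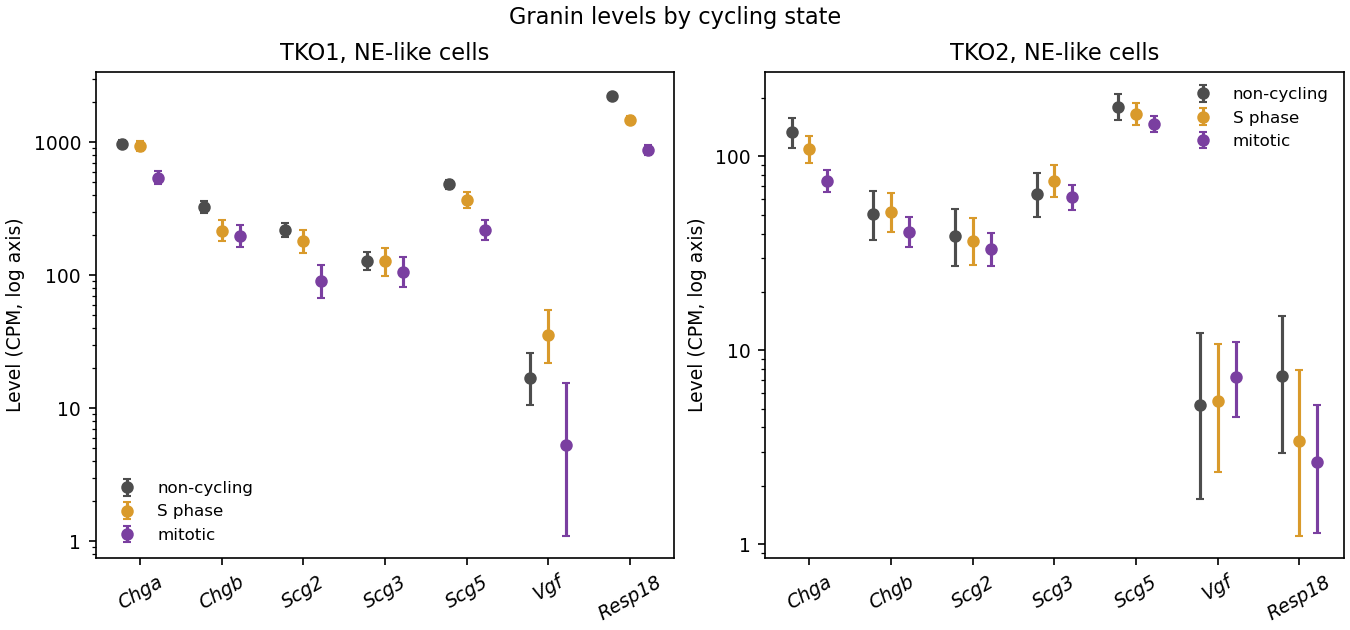
Level of each gene in CPM (log axis) in non-cycling (grey), S-phase (yellow) and mitotic (purple) NE-like cells of TKO1 (left) and TKO2 (right), with exact Poisson 95% intervals. In TKO1, Resp18 falls in steps from 2215 through 1471 to 872 CPM while Scg3 stays between 107 and 129 CPM, and in TKO2 Chga runs from 133 to 74.9 CPM.

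Macrophages have no dense core granules, so the macrophage-like cells were used for comparison. Where their UMIs of these genes came from was not tested. In TKO1 they held 87 UMIs of the 7 genes, 608 CPM (487 to 750), which is 16.6% (13.3 to 20.5) of the NE-like level. That value was 6.03% when barcodes with more than 200 detected genes were kept and 39.7% with more than 1000, so it depends on the filter by more than its interval. In TKO2 they held 30 UMIs, 130.3 CPM (87.9 to 186), which is 30.9% (20.8 to 44.1). Members were counted where the mean of the 2 classes was at least 50 CPM, 6 in TKO1 and 2 in TKO2. All were at least 2-fold lower than in NE-like cells relative to the median of all genes past that filter, where 17.6% of 3376 and 9.87% of 2998 genes were. None of these members was 2-fold higher, where 20.1% and 20.4% of the genes were. Chga and Scg5 of TKO2, and Scg2 and Scg3 of TKO1, passed the filter only through their NE-like level. Resp18 of TKO2, which was higher in macrophage-like cells, did not pass it. The counts therefore follow in part from the filter and are no test of a difference.

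In TKO1 the members were present in macrophage-like cells in proportions like those of the tumor cells. Chga was at 18.0% of its NE-like level (11.4 to 27.1), Scg5 at 19.8% (10.2 to 34.7), Chgb at 20.3% (8.74 to 40.1), Scg2 at 18.0% (5.81 to 42.1) and Scg3 at 28.8% (9.31 to 67.7). Resp18 was at 13.7% (9.48 to 19.2). The intervals of all 7 held the 16.6% of the sum, and Vgf, with 0 UMIs, was below a limit of 25.8 CPM. This is a weak comparison, because the sum contains the members and several intervals are wide. Scg2 and Scg3 had 5 UMIs each, and the interval of Vgf ran from 0 to 159%. Of the 20 neuroendocrine markers, 18 had at least 100 UMIs in the NE-like cells, and the median of their percentages was 20.4%. Calca was at 19.3%.

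The UMIs were not spread evenly over the macrophage-like cells. In TKO1, 74 of the 98 cells held none, and the 10 cells with the most held 64 of the 87 UMIs (73.6%), up to 9 in a cell. In TKO2, 106 of the 123 cells held none, and 10 cells held 23 of the 30 UMIs. Doublet scores above the 95th percentile of the tumor were given to 6 of the 98 cells and 6 of the 123. Over all retained cells they were given to 112 of 3193 in TKO1 and 133 of 3568 in TKO2.

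In TKO2, Resp18 stood apart in these cells. Its level in macrophage-like cells, 30.4 CPM (12.2 to 62.6) from 7 UMIs in 3 cells, was 622% (234 to 1417) of the NE-like level, and 4 of the 7 UMIs lay in 1 cell. Of the other members, Vgf had 0 UMIs there, and the rest ran from 12.0% for Scg2 to 33.2% for Scg3, with Chga at 21.9% (7.10 to 51.4). Calca was the only neuroendocrine marker of the list with a like value, at 421% (238 to 701). Both genes were far above their NE-like level in cluster 10. Chga, Chgb, Scg2, Scg3 and Scg5 were also higher in cluster 10 than in NE-like cells, yet lower in macrophage-like cells. Whether cluster 10 has a part in these values was not tested. The markers had a median of 34.4%.

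**Figure D5:**
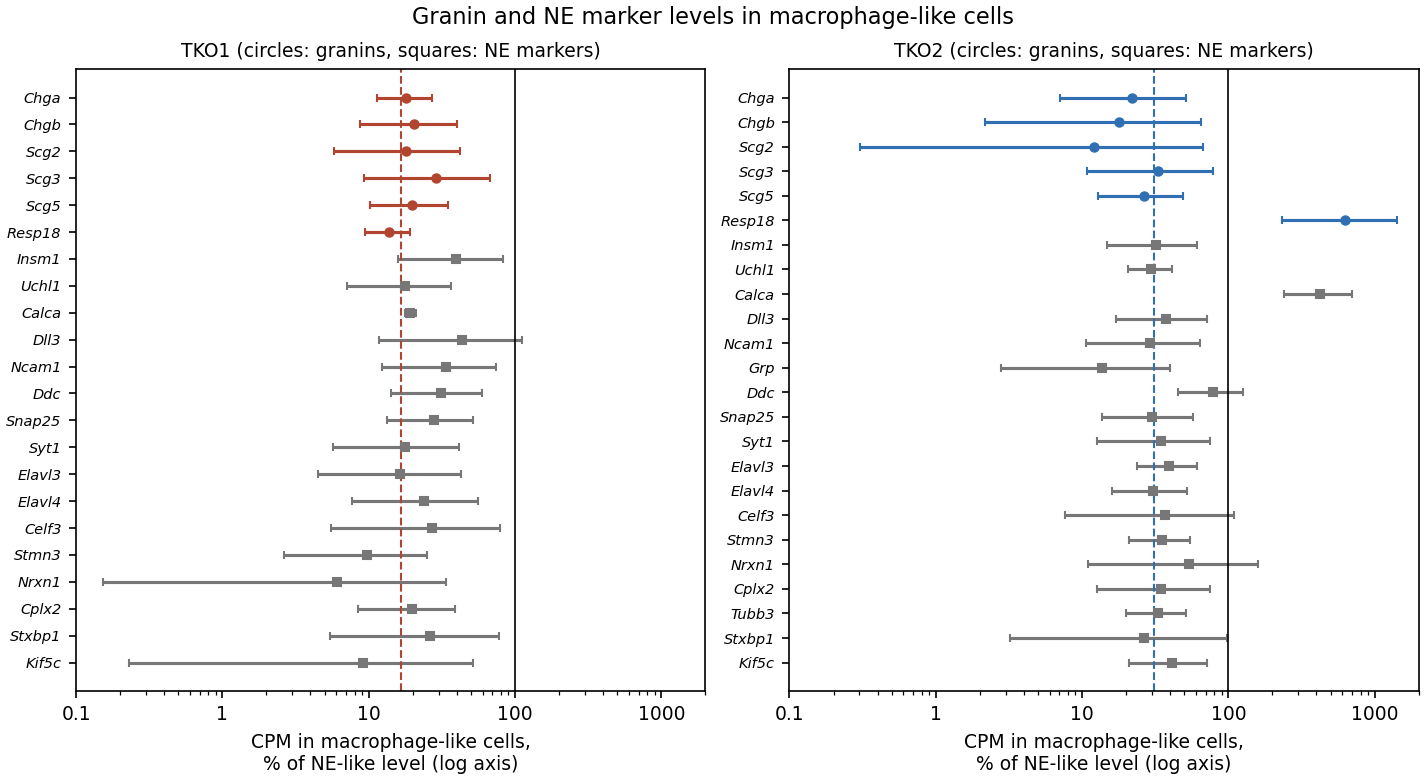
Level in macrophage-like cells as a percent of the NE-like level of the same tumor (x axis, log) for the granins (circles) and neuroendocrine markers (grey squares) with exact 95% intervals. The dashed line is the sum of the 7 granins (16.6% in TKO1, 30.9% in TKO2) and the solid line is 100%. Only Resp18 (622%) and Calca (421%) of TKO2 have intervals wholly above 100%. The intervals cover counting error only, and the 7 Resp18 UMIs lay in 3 cells. Genes with no UMI in macrophage-like cells, and markers with under 100 UMIs in NE-like cells, are left out.

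In the club-like cells of TKO1 (105 cells), a secretory epithelium of the airway, the 7 genes were at 951 CPM (819 to 1097), with Resp18 at 371 CPM (291 to 467) and Chga at 290 CPM (220 to 376). These levels lie between those of macrophage-like and NE-like cells. The part that free RNA has in them was not tested.

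The other genes of the secretory pathway were taken from 3 lists. Among 6 processing enzymes, which cut and trim the peptides, 4 were at least 2-fold higher in TKO1 relative to all genes and 1 (Qpct) in TKO2, against the 23% and 17.9% of all genes. Pcsk1n, an inhibitor of the convertase made from Pcsk1, was at 622 and 183 CPM, a log2 ratio of 1.76. Pcsk1 itself was at 175 and 8.28 CPM, a log2 ratio of 4.403, and Pam, the amidating enzyme, at 276 and 18.5 CPM, a log2 ratio of 3.90. Cpe, the carboxypeptidase, was at 427 and 278 CPM and its log2 ratio, 0.62, was the nearest to that of the median gene.

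Of 28 genes tested for granule formation, membrane and exocytosis, 15 were 2-fold higher in TKO1, 1 in TKO2 and 12 in neither, against 23% and 17.9% of all genes. Their median log2 ratio was 1.39. Slc18a1, a vesicular monoamine transporter, was at 59.0 and 1.09 CPM, a log2 ratio of 5.76, and Ptprn, a membrane protein of dense core granules, at 101 and 3.12 CPM, a log2 ratio of 5.02. Rab3b, a small GTPase of exocytosis, was at 311 and 15.5 CPM. Syt4, a synaptotagmin, went the other way, at 1.59 and 39.6 CPM, a log2 ratio of -4.64. Snap25, of the fusion machinery, was at 252 and 129 CPM. Rab2a, a GTPase of granule maturation, and Arfip2 had log2 ratios of -0.46 and -0.48, below the median gene.

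Of 14 peptide cargo genes, 8 were tested, and 5 were 2-fold higher in TKO1 and 2 in TKO2, against 23% and 17.9% of all genes. Some of these calls rest on few UMIs in TKO1 and TKO2, with 18 and 2 for Calcb and 13 and 2 for Gal. Pthlh, called in TKO2, had 2 and 16 UMIs, and the interval of its log2 ratio, -5.20 to 0.06, included 0. Calca was at 17077 CPM in TKO1 and 17.5 CPM in TKO2, a log2 ratio of 9.93 of the summed counts. As for Resp18, the TKO2 level was below that of its macrophage-like cells, at 73.8 CPM. Grp, the gastrin-releasing peptide gene, was at 5.05 and 95.9 CPM, a log2 ratio of -4.25. Nucb2, the nesfatin precursor, was at 61.3 and 16.3 CPM, and Cartpt was at 26.0 and 29.7 CPM with a log2 ratio of -0.19.

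The genes whose levels followed the sum of the 7 most closely over NE-like clusters were Btg2, Id4, Ier2, C2cd4b and Smpd3, of 2545 genes compared. Pearson's r of log2(CPM + 1) was 0.97 over the 7 clusters of TKO1 and 0.95 over the 8 of TKO2 for Btg2, and 0.96 and 0.94 for Id4. For Ier2, C2cd4b and Smpd3 the lower r of the tumors was 0.92, 0.90 and 0.90. The clusters of a tumor share a library and few points enter each r, so this is a ranking with no test. The lowest and highest clusters were at 720.3 and 1853 CPM for Btg2 in TKO1, and at 40.1 and 465 CPM in TKO2. Between members, r over clusters ran from -0.33, for Chga and Scg3, to 0.90, for Scg5 and Resp18, in TKO1, and from -0.09, for Scg3 and Vgf, to 0.85, for Scg2 and Scg5, in TKO2.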

How the data were processed

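RNA was measured in single cells of 1 lung tumor from each of 2 mice, after dissociation and sorting of single cells, and each tumor gave 1 library on the 10x Chromium system. The files deposited by the authors hold raw UMI counts, whole numbers for each pair of gene and barcode. The submitters' processing notes name Cell Ranger, Seurat and mm10, and their versions are not given in the sources used here.

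Barcodes with more than 500 detected genes were retained. Each tumor was clustered in Seurat 5.3.0 (R 4.3.3) on 1000 variable genes without the 7 members, with 10 principal components and a resolution of 0.8. Clusters were named from marker lists, at least 3 markers 4-fold above the other cells (neuroendocrine: 2-fold above immune-like cells). Clusters with markers of another type among their 10 leading genes were kept out of the NE-like class, a rule completed after the clusters were seen. Doublets were kept, because Scrublet (scanpy 1.11.5) called 1 of 3193 and 0 of 3568 cells. Cells above the 95th percentile of the score were left out as an alternative.

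UMIs were summed by class, with 3765592 in the NE-like cells of TKO1 and 7364592 in those of TKO2. CPM have exact Poisson intervals, ratios exact conditional binomial intervals and shares exact Clopper-Pearson intervals, all at 95%. They were computed with scipy 1.17.1, numpy 2.4.6 and pandas 2.3.3 under Python 3.11.15. For counting genes past 2-fold, a value under 3 UMIs was set to 3, and ratios were taken relative to the median of the genes tested. Between tumors these were all genes with at least 10 UMIs. Between cell classes or cycling states they were genes with a mean of at least 50 CPM over the classes compared. Cells were thinned to 1000 UMIs with seed 1. Of edgeR 4.0.16 only the TMM factors were used, and matplotlib 3.10.9 drew the figures. Intervals, thinning and calls were tested on simulated data.

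The genes named are the 7 members, the marker and pathway lists, in each pathway list the 3 genes with the most CPM and the 2 with the largest ratio each way at 20 CPM or more, the 5 genes most like the summed members, and the 3 leading genes of a cluster. Qpct, Calcb, Gal, Pthlh and cluster 10 were singled out after their values were seen. The members and lists were chosen with earlier results of these data known. Alternatives changed the gene filter, the clustering, doublets, scaling, thinning and cycling cuts. A few named genes are left out of the text and figures. The bulk tumors and cell lines of the study are not analysed here.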

Additional observations from a re-analysis of the deposited data

Results flagged for a closer look

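Resp18 in TKO2 was higher in macrophage-like than in NE-like cells, at 622% of the NE-like level (234 to 1417), while in TKO1 it was at 13.7% (9.48 to 19.2). The direction is opposite in the tumors, and the difference between them was not tested. The value rests on 7 UMIs in 3 of the 123 macrophage-like cells and on 36 UMIs in 3217 NE-like cells.

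Barcodes with 500 detected genes or fewer entered no comparison, and they too held UMIs of the 7 genes above the level of the macrophage-like cells. In TKO1, 1321 such barcodes gave a sum of 3195 CPM (3065 to 3328), of which Resp18 took 1579 CPM and Chga 713 CPM. In TKO2, 248 such barcodes gave a sum of 532 CPM (432 to 647), and Resp18 was at 129 CPM (82.6 to 192) against 4.89 CPM in NE-like cells.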

How the results depend on the processing

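The sum of the 7 genes was higher in TKO1 under every alternative run. From 3.12, its log2 ratio went to 2.97 at a resolution of 0.4, 3.03 at 1.2, 2.98 with more than 200 detected genes, 3.05 with more than 1000, 2.99 without the highest Scrublet scores, 2.73 with TMM factors, 2.89 with the total freed of ribosomal protein and mitochondrial genes, 2.99 over all retained cells and 3.05 as a mean over cells. Alternatives chosen after seeing the data gave 3.19 (non-cycling cells only) and 2.20 (without Resp18 in the sum). The clustering, gene filter and doublet alternatives also changed which cells were NE-like. In TKO1 the class held 2620 cells in the main run, 1984 at resolution 0.4 and 542 with more than 1000 detected genes. Without the 112 cells of highest Scrublet score it held 1753, and 1133 cells were kept out of it, against 370. The part that class membership plays in these shifts was not tested. The number of members 2-fold higher in TKO1 was between 4 and 6. It was 4 without Vgf at resolution 0.4, with 20 principal components, with more than 200 detected genes and over all retained cells, 4 with no filter on low counts, and 6, with Scg5, by CPM alone. No member was 2-fold higher in TKO2 under any of them.

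The level in macrophage-like cells of TKO1, 16.6% of the NE-like level, was 6.03% with more than 200 detected genes and 39.7% with more than 1000, where the cluster held 25 cells and club markers too. The log2 ratio of mitotic to non-cycling cells in TKO1, -1.10, was -1.001 at resolution 0.4, -0.898 with more than 1000 detected genes and -0.888 without Resp18. In TKO2 it was -0.38, and -0.00452 with more than 1000 detected genes. The causes were not tested. Across alternatives Resp18 had the widest range of log2 ratios between tumors, 5.90 to 9.03, and Scg3 stayed between 0.50 and 1.01. The share of cells with a Resp18 UMI in TKO1 was 51.9% at 500 UMIs and 79.0% at 2000 UMIs, while in TKO2 it was 0.342% and 0.378%, within the interval of the value at 1000 UMIs. No paired analysis was possible because each group holds 1 library. With 1 library per tumor the intervals cover counting error only. Vgf, with 63 and 41 UMIs, had wide intervals.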
